A study of Mus musculus with 5 samples.

Results

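The cytosolic ribosomal proteins are the protein components of the ribosomes that translate nuclear-encoded mRNA. Genes were chosen by symbol: names of the form Rpl or Rps with a number, paralogs with the endings a, l, x or l1, and Rplp0, Rplp1, Rplp2 and Rpsa. This gave 48 genes of the 18194 that carry a symbol of their own on the array, measured by 104 of its 45101 probe sets, and 46 of the 48 were bright enough to be tested. A probe set is a group of short probes that together give 1 value for a transcript. The 48 genes comprised 20 proteins of the small (40S) subunit, 20 of the large (60S) subunit, 2 of the ribosomal stalk and 6 paralogs. Of 77 core ribosomal proteins listed from textbook knowledge, 34 had no probe set with a single symbol, so no value is given for them.

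The study profiled RNA from the heart on Affymetrix Mouse Genome 430 2.0 arrays. One group was 3 female NZB_W mice, offspring of NZB and NZW parents and a classic model in which autoimmune disease arises without induction, aged 12 to 15 weeks and with moderate kidney injury from lupus nephritis by Austin score. The other group was 2 female NZW mice with healthy kidneys, matched in age, and no mouse was treated. The titles call the arrays of a group biological replicates. NZW is a parent strain of the cross, so a strain effect and a disease effect cannot be told apart, and the NZB parent was not analysed here. The question set by the design is which genes differ between the hearts of NZB_W mice with lupus nephritis and of NZW mice with healthy kidneys.

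Each ribosome joins a small subunit, which reads the mRNA, to a large one, which forms peptide bonds, and the stalk of the large subunit recruits elongation factors. The core proteins are needed in matched amounts, and in mammals most of their mRNAs begin with a stretch of pyrimidines, the TOP motif, through which mTORC1 signalling and the protein Larp1 adjust their translation. Muscle also uses a paralog, Rpl3l, in place of Rpl3, and the heart raises ribosome production when it grows.

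The sequences around annotated transcription starts are shown because they are a feature that the choice by symbol did not use and that Rps9, the gene on which the results below turn, shares with other members. RefSeq entries (build GRCm38.p6) matched 42 of the 48 genes with 50 starts. Runs of at least 8 consecutive bases that are each C or T were sought on the strand that reads like the mRNA. The search ran from 20 bases before to 30 after the start. Such a run was present at 23 of these 50 starts (46.0%), against 6226 of all 32851 entries (19.0%). The core letters of the ETS family motif, CGGAAG on either strand anywhere in the 300 bases of an entry, were present in 30 of the 50, against 5537 of all entries (16.9%). The entry of Rps9 had a pyrimidine run but not the ETS letters. Below, 15 bases on each side of the start are printed 5′ to 3′ for 6 genes with such a run, in capitals, and for Rpl37 and Rpl3l (1 of 2 starts), which had none.
Rps9 (chr7:3704026-3704055, plus strand): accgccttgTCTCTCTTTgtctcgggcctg
Rps18 (chr17:33955651-33955680, minus strand): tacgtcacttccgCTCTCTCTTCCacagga
Rps10 (chr17:27635230-27635259, minus strand): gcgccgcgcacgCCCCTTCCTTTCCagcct
Rps27 (chr3:90213634-90213663, minus strand): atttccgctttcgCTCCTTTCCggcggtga
Rpl35 (chr2:39005117-39005146, minus strand): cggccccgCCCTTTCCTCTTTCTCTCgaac
Rpl38 (chr11:114668565-114668594, plus strand): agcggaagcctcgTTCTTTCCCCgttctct
Rpl37 (chr15:5116598-5116627, plus strand): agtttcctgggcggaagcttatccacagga
Rpl3l (chr17:24727811-24727840, plus strand): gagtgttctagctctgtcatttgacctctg
Of the runs printed, that of Rpl35 was the longest, at 18 bases, and that of Rps9 had 9. These matches are letters in a window and do not show a site in use.

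The deposited values are log2 expression levels, and each gene was represented by its brightest probe set. Arrays correlated at 0.972 to 0.993 with each other over the genes tested. Cardiomyocyte markers such as Myh6 and Tnnt2 were bright in every heart, with the dimmest of 9 listed markers at 11.9 to 12.1 in NZB_W hearts and 12.0 to 12.1 in NZW hearts. The 11 tested macrophage and monocyte markers were all higher in NZB_W hearts (summed log2 values of 88.2 to 96.4, against 81.4 to 84.7 in NZW hearts), as were both tested red blood cell markers, Alas2 and Slc4a1 (summed values of 12.8 to 18.4 in NZB_W hearts, against 10.9 to 11.4 in NZW hearts). None of these 13 passed the gene-level test. More cells of a type and more RNA per cell cannot be told apart in whole tissue. The part of such cells in the ribosomal protein values was not tested. The 18S ribosomal RNA control probe sets, which report the RNA core of the small subunit, stood apart on 1 array: the middle one read 8.26, 8.36 and 8.65 in NZB_W hearts, against 8.31 and 11.4 in NZW hearts. The high value belonged to NZW array 2.

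Ribosomal protein genes differed little between the hearts. Of the 46 tested, 26 were higher and 20 lower in NZB_W hearts, and the median log2 difference was 0.0046, beside a median of -0.014 over all 11897 genes tested, of which 45.5% were higher. No member passed the gene-level test (limma, adjusted p under 0.05), which called 0.00841% of all genes. At an unadjusted p under 0.05 there was 1 member, beside 5.54% of all genes. In 5 of the 46 (10.9%) the 3 NZB_W values lay all above or all below both NZW values, against 17.4% of all genes. With each array centred on its own median over all probe sets, 19 of the 46 were higher and the median was -0.0092, so the sign of this median depends on the centring.

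**Figure D1:**
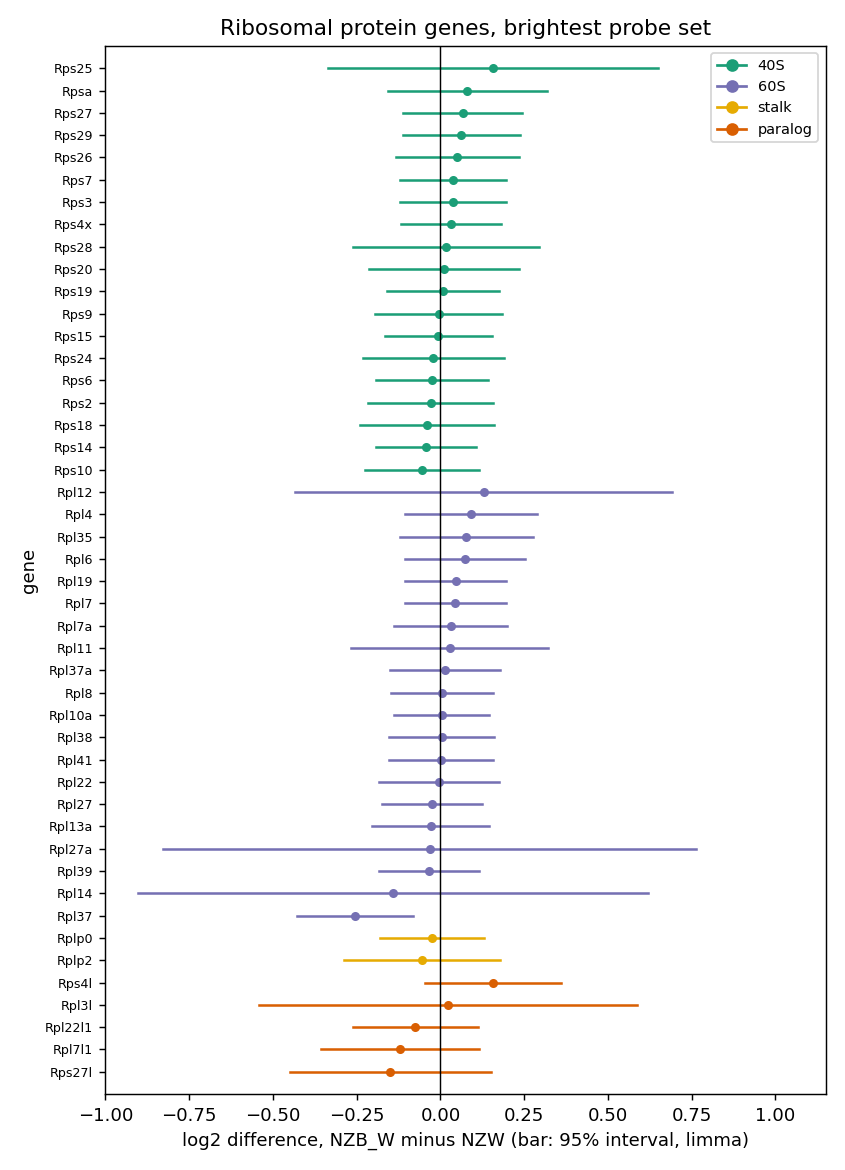
Log2 difference in expression (horizontal axis, NZB_W minus NZW) of the 46 tested ribosomal protein genes, 1 per row, coloured by 40S, 60S, stalk or paralog, with 95% intervals from limma. Most points lie within 0.1 of zero, and the interval of Rpl37 is the only one that leaves zero out, although Rpl37 did not pass after adjustment.

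The differences were also small in size. The median absolute log2 difference was 0.036 over the members and 0.091 over all genes tested, and 39 of the 46 members (84.8%) lay within 0.1 of zero, against 53.5% of all genes. Members also varied less between hearts of 1 group, with a median within-group SD of 0.056 beside 0.13 over all genes. Most members were bright. Of the members with a mean of 11 or more, a level chosen after the values were seen, all 33 lay within 0.1 of zero, and of the other 407 genes as bright 64.6% did.

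**Figure D2:**
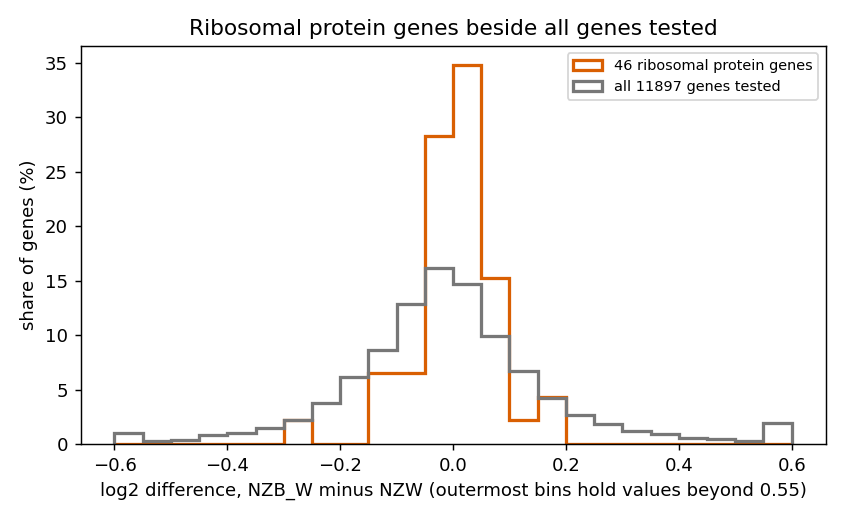
Share of genes (vertical axis, percent) by log2 difference, NZB_W minus NZW, in steps of 0.05, for the 46 ribosomal protein genes and for all 11897 genes tested; the outermost bins also hold values farther out. The members are concentrated around zero, where their median absolute difference was 0.036 beside 0.091 over all genes.

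The family as a whole had no array far from the rest. Relative to a gene's own mean over the 5 arrays, the median member deviated by -0.0034, -0.00036 and 0.0046 on NZB_W arrays 1, 2 and 3, and by 0.0013 and -0.0074 on NZW arrays 1 and 2. The groups overlapped in this median. The lowest median was that of NZW array 2, the array with high 18S signal, and the highest that of NZB_W array 3, which correlated least with the others of its group (0.977 and 0.982).

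**Figure D3:**
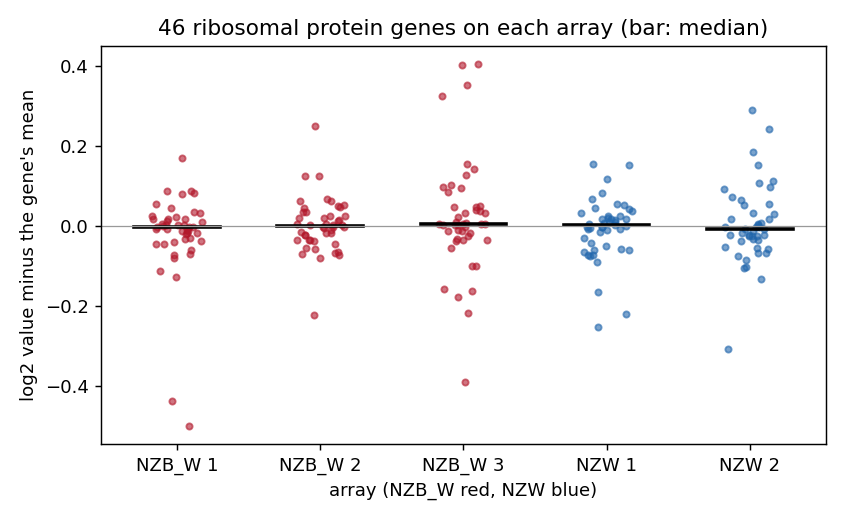
Log2 value of each of the 46 ribosomal protein genes minus the gene's mean over the 5 arrays (vertical axis), by array, with 1 point per gene and a bar at the median. All 5 medians lie between -0.0074 and 0.0046.

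Among small subunit proteins, 11 of 19 tested were higher in NZB_W hearts and the median log2 difference was 0.012. None passed, and the gene-level adjusted p values of limma started at 0.870. Rps29, a zinc-binding protein of the subunit head, read 13.34, 13.34 and 13.44 in NZB_W hearts, against 13.34 and 13.28 in NZW hearts (log2 difference 0.063, SE 0.067). Its groups overlapped in 1 shared value, although its other 2 probe sets were higher in every NZB_W heart, by 0.088 and 0.15. Rpsa, the laminin receptor protein that docks on the back of the subunit, read 11.26, 11.36 and 11.47 in NZB_W hearts, against 11.34 and 11.23 in NZW hearts, so its groups overlapped too. Rps10, which lies near the mRNA entry site, read 12.27, 12.28 and 12.37 in NZB_W hearts, against 12.34 and 12.38 in NZW hearts (-0.054, SE 0.065). Its 5 tested probe sets had lower means in NZB_W hearts, by 0.054 to 0.12, and none of them passed. A further one below the brightness filter, 1436384_at, averaged 4.15 in NZB_W hearts and 3.95 in NZW hearts, with overlapping groups.

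Other small subunit genes did not pass either. Rps19, the gene most often mutated in Diamond-Blackfan anaemia, read 11.13 in all 3 NZB_W hearts, against 11.06 and 11.18 in NZW hearts, a log2 difference of 0.0073 with a 95% interval from -0.16 to 0.17. Rps14, whose loss is linked to the anaemia of 5q deletion, differed by -0.042 (SE 0.057). Its other tested probe set, 1436586_x_at, was lower in every NZB_W heart (-0.12, SE 0.077) and did not pass. Rps6, the substrate of the S6 kinases below mTORC1, differed by -0.025 on its only tested probe set. Rps4x differed by 0.033, and its 3 NZB_W values (12.43, 12.43 and 12.48) lay just above both NZW values (12.42 and 12.41). It did not pass. Rps25 differed by 0.16 with a wide interval, from -0.34 to 0.65, on a dim probe set.

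Among large subunit proteins, 13 of 20 were higher in NZB_W hearts, with a median log2 difference of 0.0046. Rpl37, a small zinc-binding protein near the exit tunnel for the new peptide, had the largest difference and the smallest p of the 46 members. It read 8.74, 8.82 and 8.69 in NZB_W hearts, against 9.01 and 9.004 in NZW hearts. All 3 NZB_W hearts lay below both NZW hearts, and the log2 difference of -0.26 (SE 0.066, 95% interval -0.43 to -0.083) gave an unadjusted p of 0.013 and an adjusted p of 0.765 in the limma fit, so it did not pass. This value rests on a probe set (1438291_x_at) whose suffix marks probes that can also bind other transcripts, and a brighter probe set carries the Rpl37 symbol with others.

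Rpl4, which lines the exit tunnel, read 12.59, 12.54 and 12.52 in NZB_W hearts, against 12.54 and 12.38 in NZW hearts (0.091, SE 0.075), and the groups overlapped. Rpl6 and Rpl35 differed by 0.073 and 0.077 and likewise overlapped. Rpl19 and Rpl7, both structural proteins of the large subunit, were higher in every NZB_W heart, but by only 0.046 (SE 0.058) and 0.045 (SE 0.057). Rpl11, which with Rpl5 and 5S RNA can bind and restrain Mdm2, read 11.57, 11.60 and 11.30 in NZB_W hearts, against 11.47 and 11.45 in NZW hearts. Its lowest and highest values both belonged to NZB_W, and it differed by 0.027 (95% interval -0.27 to 0.32). Rpl38, Rpl8, Rpl10a and Rpl41 differed by 0.00063 to 0.0046.

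Neither tested stalk gene passed, and Rplp1 had no probe set with a single symbol. Rplp0, the base of the stalk and a common reference gene for quantitative PCR, read 12.32, 12.28 and 12.26 in NZB_W hearts, against 12.34 and 12.28 in NZW hearts. Its log2 difference was -0.024 with a 95% interval from -0.18 to 0.13. Rplp2, one of the flexible stalk proteins, differed by -0.055 (95% interval -0.29 to 0.18). The sign of Rplp2 turned to 0.020 without NZW array 2.

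The paralogs ranged more widely for their number, and none of the 5 tested passed. Rpl3l, the striated muscle form of Rpl3, read 10.66, 10.74 and 10.10 in NZB_W hearts, against 10.50 and 10.45 in NZW hearts. NZB_W array 3 gave the lowest value and the other NZB_W arrays the highest, so the difference of 0.024 had a 95% interval from -0.54 to 0.59. Rps27l, a paralog of Rps27 that is induced by p53, read 9.83, 9.89 and 9.62 in NZB_W hearts, against 9.83 and 10.02 in NZW hearts (-0.15, SE 0.11). Its 3 probe sets all had lower NZB_W means, and all overlapped. Rps4l, a paralog of Rps4x, read 6.93, 7.005 and 6.89 in NZB_W hearts, against 6.71 and 6.86 in NZW hearts, without overlap (0.16, SE 0.077, adjusted p = 0.859 in limma). Rpl22l1 and Rpl7l1 differed by -0.075 and -0.12, and Rpl39l, a paralog of Rpl39, was below the brightness filter on every array. The core partners Rps27, Rps4x, Rpl22, Rpl7 and Rpl39 differed by 0.066, 0.033, -0.0039, 0.045 and -0.034. Those of Rps27 and Rpl39 rest on dim probe sets, which averaged 5.12 and 5.57, near the array medians of 4.62 to 4.68. Rpl3 had no probe set of its own, so Rpl3l was not set against its partner.

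A single probe set broke this pattern. Rps9, a small subunit protein close to the mRNA entry channel, has 3 probe sets. The probe set 1434624_x_at read 10.10, 9.90 and 10.37 in NZB_W hearts, against 6.26 and 6.18 in NZW hearts. All 3 NZB_W hearts lay far above both NZW hearts. The log2 difference of 3.91 (SE 0.15, 95% interval 3.51 to 4.31) is a 15.0-fold difference, and the probe set passed the test over 20211 probe sets (limma adjusted p = 0.0143). It was the 1 member called of 87 member probe sets, beside 0.0247% of all probe sets. At an unadjusted p under 0.05 there were 2 of the 87, beside 5.16% of all probe sets.

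The brightest Rps9 probe set, 1433689_s_at, did not pass. It read 12.13, 12.11 and 12.13 in NZB_W hearts, against 12.21 and 12.05 in NZW hearts. The NZB_W values lay between the NZW values, and the log2 difference was -0.0055 with a 95% interval from -0.19 to 0.18 in the gene-level fit. The last probe set, 1426958_at, was below the array medians everywhere, at 3.39, 3.39 and 3.39 in NZB_W hearts, against 3.38 and 3.51 in NZW hearts, and was not tested. The suffix of 1433689_s_at marks probes shared by several transcripts, and that of 1434624_x_at marks probes that may bind unrelated transcripts.

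**Figure D4:**
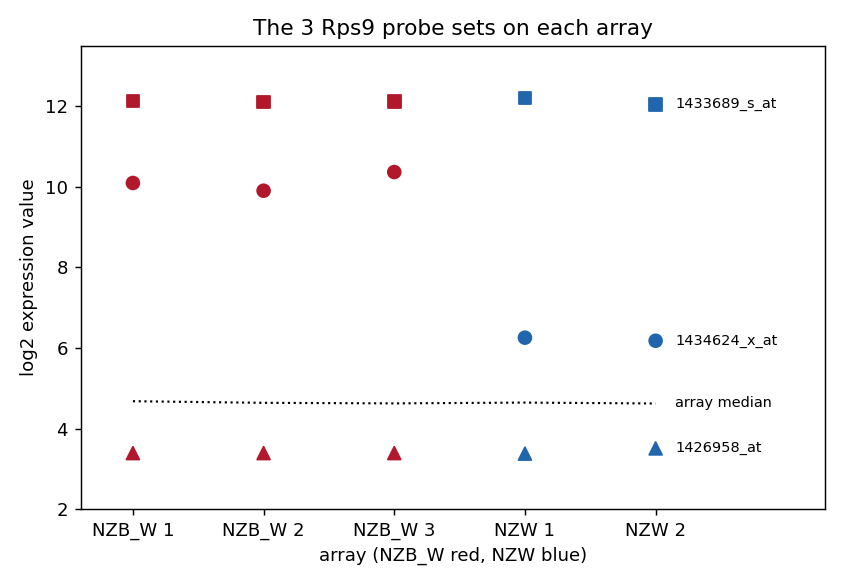
Log2 values (vertical axis) of the 3 Rps9 probe sets on each array, with squares, circles and triangles for the 3 probe sets, red for NZB_W and blue for NZW, and a dotted line at the array median. The circles (1434624_x_at) lie between 9.90 and 10.37 in NZB_W hearts and at 6.26 and 6.18 in NZW hearts, while the squares lie near 12 and the triangles near 3.4 in every heart.

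The disagreement between the Rps9 probe sets was tested directly on each array. The value of 1434624_x_at minus that of 1433689_s_at was -2.03, -2.21 and -1.76 in NZB_W hearts, against -5.95 and -5.87 in NZW hearts. The difference between the groups was 3.91 (SE 0.15, 95% interval 3.53 to 4.29, limma adjusted p = 0.000746), the 4th smallest p of 8311 such pairs over all genes. Of the 41 member pairs 1 was called, beside 0.0963% of all pairs, and it was also the 1 with an unadjusted p under 0.05, beside 4.57% of all pairs. Rps9 had been singled out in earlier results of these data, so the call is not independent evidence. Without NZW array 2 the difference was 3.95 and its adjusted p was 0.0541. On its own, 1434624_x_at differed by 3.78 to 4.01 with any 1 array left out. The limma adjusted p was 0.0456 without NZB_W array 3, which kept the call, and 0.534 and 0.170 without NZB_W arrays 1 and 2 and 0.578 and 0.811 without NZW arrays 1 and 2. Averaging the probe sets of each gene in place of taking the brightest gave Rps9 a log2 difference of 1.28 (limma adjusted p = 0.0451). That average takes in 1434624_x_at itself and the dim 1426958_at, whose difference was -0.052, so it is not separate evidence.

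Genes next to Rps9 did not pass. In GRCm38.p6 the 5 protein-coding genes before it are Cnot3, Leng1, Tmc4, Mboat7 and Tsen34, and the 5 after it include Pirb and Pira2. The 6 tested probe sets of Cnot3, Leng1, Mboat7 and Tsen34 differed by -0.054 to 0.19 on the log2 scale, none passed, and in each the groups overlapped. The genes after it had no tested probe set. What the probes of 1434624_x_at bind in either strain was not tested, since no probe sequences were used here.

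No other member pair passed the test. Of the 46 tested genes, 20 had more than 1 tested probe set, with a median range of 0.094 between the lowest and the highest log2 difference of a gene, and 18 of the 20 had a range under 0.2. Rps3, which lines the mRNA entry channel, had the widest range after Rps9, at 0.26. Its bright probe set differed by 0.037 and its dimmest tested one by 0.21 with a 95% interval from -0.38 to 0.80. For Rpl22 the probe set 1448398_s_at read 7.83, 7.96 and 7.88 in NZB_W hearts, against 8.01 and 8.12 in NZW hearts. It lay lower in every NZB_W heart (-0.17, SE 0.075), while the brightest Rpl22 probe set differed by -0.0039, and the direct test of their disagreement gave -0.17 with a 95% interval from -0.42 to 0.09. Rpl27, Rps18 and Rps27l gave disagreements of -0.14, 0.12 and 0.11 that did not pass either. The 5 tested probe sets of Rpl35 differed by -0.00078 to 0.082, and its 1 dim probe set, which was not tested, by 0.18.

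**Figure D5:**
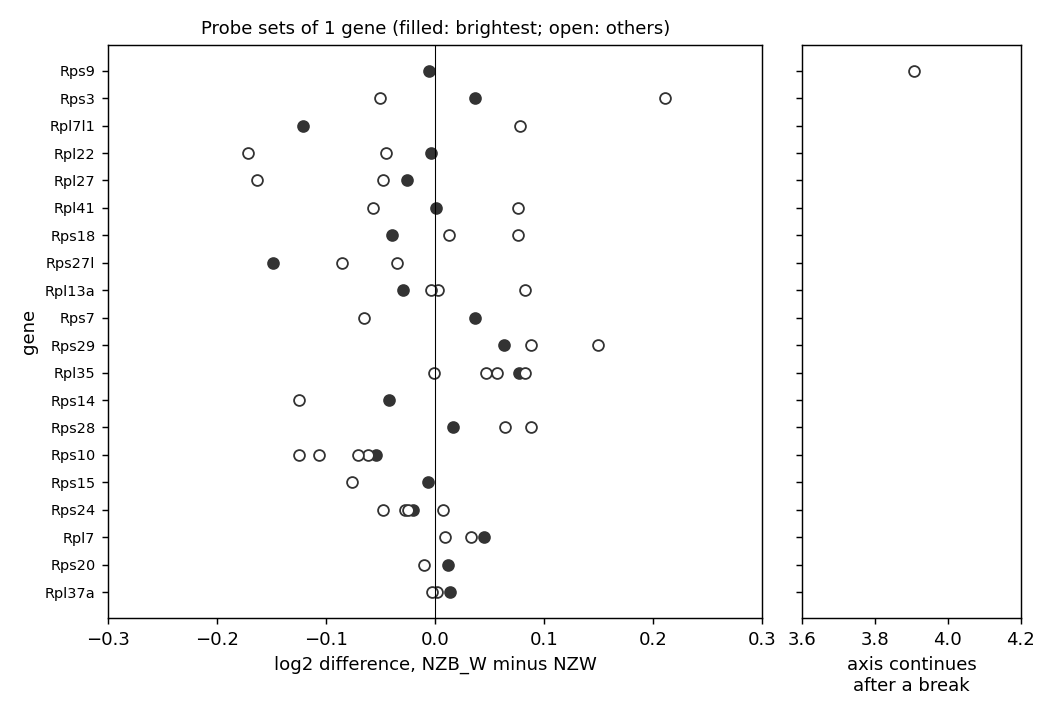
Log2 difference, NZB_W minus NZW (horizontal axis, with a break), of every tested probe set of the 20 ribosomal protein genes that have more than 1, with filled points for the brightest and open points for the others. All points lie between -0.3 and 0.3 except 1 of the 2 Rps9 points, at 3.91.

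The members use several kinds of probe set. Suffixes are Affymetrix's own marks: _x_at for probes that may bind unrelated transcripts, _s_at for probes shared by several transcripts, and _a_at for probes shared by transcripts of 1 gene. The 38 member probe sets ending in _x_at, the Rps9 one included, had a median log2 difference of -0.0035, the 26 ending in _a_at one of 0.0083, and the 20 with no such mark one of 0.00036. In 12 of the 87 (13.8%) the groups did not overlap, against 16.7% of all probe sets. For 10 of the 46 genes a brighter probe set exists that carries the gene's symbol together with others, and for 8 of them (Rps6, Rps25, Rps27, Rpl12, Rpl14, Rpl27a, Rpl37 and Rpl39) the probe set used averaged under 11. Those used for Rpl12, Rpl14, Rps27 and Rpl39 averaged 4.75, 4.92, 5.12 and 5.57, near the array medians of 4.62 to 4.68.

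No gene of the other translation lists passed. Fau and Rps3a1, ribosomal proteins outside the choice by symbol, differed by 0.035 and 0.0034. Of 8 tested elongation factors 5 were higher (median 0.030), and Eef2, the translocase, differed by 0.37 (SE 0.20). Of 32 initiation factors 16 were higher and 16 lower (median -0.0030). Eif4a1, the helicase that unwinds the start of mRNAs, read higher in every NZB_W heart (0.31, SE 0.073, adjusted p = 0.742 in limma), and Pabpc1, the poly(A) binding protein, differed by 0.64 (SE 0.31). Of 36 ribosome biogenesis factors 9 were higher and 27 lower (median -0.049), with the nucleolar protein Ncl at 0.56 (SE 0.28) and Polr1a, the catalytic subunit of RNA polymerase I, at -0.18 (SE 0.092). Of 15 regulators of TOP mRNAs and mTORC1 5 were higher (median -0.035), with Mtor at -0.14 (SE 0.13). In none of these 4 lists did a member pass, and the median over all genes tested was -0.014.

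Mitochondrial ribosomal proteins, the nearest family, gave other values. Of their 76 tested genes 6 were higher and 70 lower in NZB_W hearts, with a median log2 difference of -0.11, beside 26 higher, 20 lower and 0.0046 for the cytosolic family. None of either family passed, and the difference between the families was not tested.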

How the data were processed

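Biotinylated cRNA from 6 µg of total heart RNA was hybridized to the arrays after bleeding and saline perfusion, per the labels' protocols. The deposited values are log2 expression levels normalized across arrays by the authors. RMA, GCRMA and Partek appear in the submitters' processing notes, with no word on which of them gave these values. Exact ties are common: 34 of the 87 tested member probe sets (39.1%) hold 1 value on at least 2 arrays, against 63.0% of all probe sets. The share over all probe sets includes dim ones that were not tested, so the bases differ.

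Probe sets with 1 annotated symbol were used; all 104 member probe sets matched RefSeq by Entrez identifier with the same symbol. Genes and probe sets were tested when above the array median on at least 2 arrays. Limma 3.58.1 (R 4.3.3; lmFit, eBayes, two-sided, no covariates) was fitted to all 11897 genes, 20211 probe sets, or 8311 differences between a probe set and the brightest of its gene, with Benjamini-Hochberg adjustment over each table and a threshold of 0.05. The fit was run on simulated data with normal noise and with shifts larger than any gene-level difference of a member. That run does not bear on small differences or on exact ties. Figures used matplotlib 3.10.9. The number of arrays limits the precision.

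The rule for named genes took Rps9, members that passed or had the smallest p in each direction, those with the widest ranges, stalk and paralog genes, and up to 4 genes of each pathway list. The text prints some of them, and others as examples chosen after their values were seen. Members and lists were chosen with earlier results of these data known.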

Additional observations from a re-analysis of the deposited data

How the results depend on the processing

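The count of ribosomal protein genes called by the gene-level test was 0 in 16 of 17 alternatives and 1 when all probe sets of a gene were averaged, where Rps9 turned to 1.28 from its main difference of -0.0055. The averaged value takes in 1434624_x_at, so this call is not separate evidence. The members with an unadjusted p under 0.05 numbered 1 in the main test, 3 with the replicate block or with probe sets averaged, 2 with array weights or without NZB_W array 3, and 0 without suffixed probe sets, and their share over all genes under these alternatives was not computed. The members' median difference lay between 0.0025 and 0.012 with 1 array left out. It was -0.0092 with array medians at 0, 0.010 with the medians of other features at 0, 0.010 without NZB_W array 3 and NZW array 2 together, and -0.015 over the 18 genes with a probe set lacking the suffixes _s_at, _x_at and _a_at. The count of member probe sets called, 1 in the main test, was 0 with dim probe sets kept in (limma adjusted p = 0.0571), 0 without those 2 arrays together (0.535), 0 with a replicate block (0.212), and 0 to 1 with 1 array left out. The count of pairs called was 0 without those 2 arrays together (limma adjusted p = 0.193) and 0 to 1 with 1 array left out, 0 being without NZW array 2. The pair difference itself ran from 3.74 to 4.01 over its 17 alternatives. Replicate numbers are shared by title only, and deviations from group means correlated at -0.26 and 0.10 for arrays of equal number, so the block is given as a value and not as a pairing. Counts of all probe sets called were 5 in the main test, 0 with the replicate block, 16 with array weights, 15 with other features centred, 8 with array medians at 0, 2 with dim probe sets kept in or with all 5 arrays above the median, and 0 to 5 with 1 array left out. Counts of all genes called were 1 in the main test, 8 with array weights or with other features centred, 5 with probe sets averaged, 2 without suffixed probe sets, 0 with the block or without those 2 arrays, and 0 to 1 with 1 array left out. Counts of all pairs called were 8 in the main test, 22 with array weights, 13 with the median of the other probe sets as base, 4 with all 5 arrays above the median, 0 without those 2 arrays, and 3 to 8 with 1 array left out. Alternatives were computed for 17 single genes. Of these Rpsa, Rps25, Rpl7l1, Rps27l, Rpl22l1, Rplp2 and, at gene level, Rps9 changed sign under at least 1 alternative, and Rpl7l1 was 0.22 with probe sets averaged. Leaving out 1 NZW array leaves a lone array, assumed to vary like the others.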

Other observations

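The 17 member probe sets below the brightness filter were above the array median on none of the arrays. Among them 1439780_at, annotated to Rpl7l1, read 3.96, 4.15 and 3.96 in NZB_W hearts, against 3.32 and 3.33 in NZW hearts. It was higher in every NZB_W heart, but at a level where no test was run, and the 2 brighter Rpl7l1 probe sets had overlapping groups. The dim probe set 1450417_a_at of Rps20 went the other way, at 2.94, 3.02 and 3.08 in NZB_W hearts, against 3.36 and 3.57 in NZW hearts, while both bright Rps20 probe sets differed by 0.012 and -0.010.

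A further 110 probe sets carry a ribosomal protein symbol together with other symbols, and 98 of them were above the filter. The log2 differences of these 98 ran from -0.54 to 0.37 with a median of 0.010, and 80 lay within 0.1 of zero. In 22 of the 98 the groups did not overlap, against 16.7% of all tested probe sets with 1 symbol. More of these 22 were higher in every NZB_W heart than were lower. Over all tested probe sets with 1 symbol, 1360 were higher in every NZB_W heart and 2009 lower. The lowest log2 difference belonged to 1434328_at, at 9.23, 9.35 and 9.08 in NZB_W hearts, against 9.78 and 9.74 in NZW hearts, without overlap. At a bright level 1416277_a_at read 12.67, 12.64 and 12.80 in NZB_W hearts, against 12.42 and 12.43 in NZW hearts, also without overlap. These probe sets were not tested, and they are given by identifier because their annotation names more than 1 gene.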
